A study of Mus musculus with 39 samples.

Results

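The comparison described here asks whether pirinixic acid, a synthetic agonist (the Wyeth compound of the labels) of the fatty acid receptor PPARα, changes the liver transcriptome of mice that lack that receptor. Its members are 8 of the 39 arrays of the series, chosen by their labels: 4 livers of PPARα-null mice given 50 mg/kg pirinixic acid in 0.5% methylcellulose and 4 livers of PPARα-null mice given 0.5% methylcellulose alone. Beside them stand 4 wild-type livers given pirinixic acid and 3 given methylcellulose, and 4 null livers given PFOA (perfluorooctanoic acid, ammonium salt) at 3 mg/kg and 4 given its vehicle, deionised water. All mice were adult males of the 129SV background, gavaged daily for 7 days, with 4 animals per group by the study design. The labels call the animals PPARa-null and do not describe the allele. Each array is whole-liver RNA on a 1-colour Applied Biosystems array, read as a normalised log2 signal, and the test covered 25295 probes, those measured on each of the 39 arrays.

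PPARα is a nuclear receptor that pairs with the retinoid X receptor, binds direct repeats of the hexamer AGGTCA, and is activated by fatty acids and by fibrate-like drugs. In rodent liver its activation enlarges the peroxisome compartment and raises the genes of fatty acid uptake, omega-hydroxylation and peroxisomal and mitochondrial beta-oxidation. A ligand can also act on other receptors, among them PPARγ, PPARδ, the constitutive androstane receptor CAR and the pregnane X receptor PXR, and the null liver is where such effects would be seen without the PPARα response.

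The level of Cox6b2 was known from earlier results of these data to separate the labelled genotypes. Its values are therefore no independent check of the labels. Cox6b2, a testis-type subunit of cytochrome c oxidase, had log2 signals of 8.44, 7.76, 7.02 and 7.90 in null livers with pirinixic acid and 7.97, 7.48, 6.91 and 8.09 in null livers with methylcellulose. It was between 16.21 and 17.19 in wild-type livers with pirinixic acid and between 14.11 and 14.51 in wild-type livers with methylcellulose. All 8 null arrays thus lay far below all 7 wild-type arrays. Ppara itself read 15.85, 15.58, 16.04 and 16.06 in null livers with pirinixic acid and 15.90, 15.86, 15.98 and 16.29 in null livers with methylcellulose. Whether its probe lies inside the deleted stretch is unknown here, so its signal checks nothing. All 8 measured hepatocyte markers had a 95% confidence interval within 1 log2 unit of 0.

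Over all tested probes, no difference between pirinixic acid and methylcellulose passed the test in null livers. limma called 0 of 25295 probes (0% of the probes tested), and the smallest Benjamini-Hochberg adjusted p was 0.99993. At an unadjusted limma p under 0.05 there were 691 probes (2.73% of those tested), 456 of them higher and 235 lower with pirinixic acid. The arrays of the 2 groups did not overlap at 482 probes (1.91%). By chance alone, a share of 0.05 of probes is expected under that p. Non-overlap of 4 arrays against 4 is expected by chance at 2.86%. Both observed shares were lower. The same limma test called 1542 probes (6.1%) in wild-type livers with 4 arrays against 3, with 708 higher (2.8%) and 834 lower (3.3%). That count was 797 to 2399 with 1 array left out (797, 835 and 876 without methylcellulose replicates 3, 1 and 2, and 859 and 2399 without pirinixic acid replicates 3 and 1), 70 when the arrays of the comparison were fitted alone and 39 on probes complete on them.

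The spread of the differences was also smaller without the receptor. The standard deviation of the log2 difference over all probes was 0.369 in null livers and 0.666 in wild-type livers. The median standard error of a difference was 0.375 in null livers and 0.405 in wild-type livers, so the wild-type comparison was slightly less precise. In null livers 559 probes (2.21%) differed by more than 1 log2 unit, against 2875 (11.4%) in wild-type livers. Of those 559 probes, 137 had a mean signal above 9.14, the median of all deposited values.

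An absence of calls does not show an absence of change, so confidence intervals are given for the differences. Their width does not come from these 8 arrays alone. It rests on 1 variance per probe, shared by all arrays of the series. Where other groups spread more or less than the null groups, the interval is wider or narrower than these 8 arrays alone would give. The median half-width of the 95% interval was 0.764 log2 units. For 12883 probes (50.9%) the whole interval lay within 1 log2 unit of 0, that is, within a factor of 2. For the other probes the interval reaches past that range, so a change of that size is not excluded.

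Pairwise correlations between the 8 arrays showed no separation by treatment. Across probes, arrays of the same group correlated with a median r of 0.964 (0.9498 to 0.970 over 12 pairs) and arrays of different groups with a median r of 0.961 (0.954 to 0.972 over 16 pairs). The first principal component held 25.2% of the variance and the second 19.5%. A set of 81 probes split the arrays of the series into 16 and 23, a split the labels do not record, and 2 pirinixic acid arrays and 1 methylcellulose array of the null mice were in the smaller set. The split went in part with the replicate numbers, as every replicate 2 array was in the larger set. A silent-gene level was averaged over 583 probes of olfactory, vomeronasal and taste receptor and keratin-associated protein genes, taken as not expressed in liver. It was 8.96 with pirinixic acid and 8.93 with methylcellulose (exact permutation p = 0.886, two-sided, 4 against 4). Signals under this silent-gene level are read as not above background, and a difference between 2 groups that both average below it is not read as a change or as its absence. In the null comparison this holds for Amn, Cox6b2, Cpt1a, Cyp4a31, Fgf21, Mogat1, Oas1g and Ston1 among the genes named below, whose null and genotype differences are given as measured and are not exact sizes.

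The probes that wild-type livers moved were followed into the null livers, which share no array with them. The 708 probes higher in wild type had a median log2 difference of -0.0055 in null livers, against 1.24 in wild-type livers. In null livers 353 of them were on the same side of 0 as in wild type, and 0 were called. The 834 probes lower in wild type had a median of 0.083 in null livers, against -0.949 in wild-type livers, with 258 on the same side and 0 called. Across the 1542 probes the 2 differences had a Pearson r of -0.189, a description over probes that share the same 15 arrays.

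The null intervals were also set against the wild-type estimates. The upper end of the null 95% interval lay below the wild-type estimate for 698 of the 708 probes higher in wild type, and the lower end lay above it for 830 of the 834 probes lower in wild type. These counts leave out the error of the wild-type estimates, by which the probes were chosen, so the counts overstate the separation. The limma test of the genotype difference, described below, passed for 135 of the 708 and 169 of the 834. At least 50% of the wild-type size in the same direction was reached by 11 of the higher and 4 of the lower probes. The null interval was within 1 log2 unit of 0 for 477 (67.4%) of the higher and 700 (83.9%) of the lower probes, against 50.9% of all probes.

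**Figure D1:**
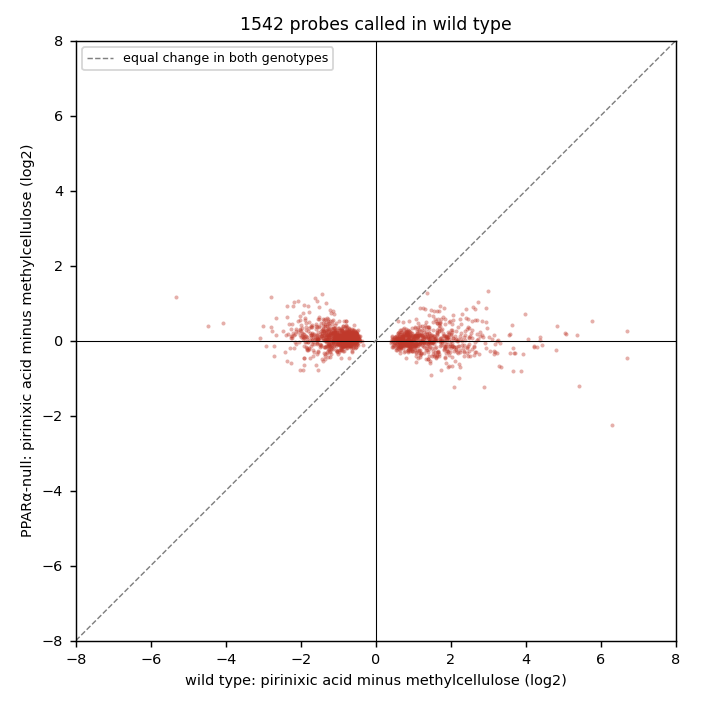
Log2 difference between pirinixic acid and methylcellulose in PPARα-null livers (vertical, 4 against 4 arrays) and in wild-type livers (horizontal, 4 against 3 arrays) for the 1542 probes called in wild type. Points are probes, and they lie along the horizontal line at 0 rather than on the dashed line of equal change.

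The difference between the genotypes was tested directly, as the response in null livers less that in wild type. limma called 313 probes (1.24%), of which 176 (0.696%) had a higher and 137 (0.542%) a lower response in null livers. The number called depended on the fit, from 2 to 1055 over the alternatives given in the closing section, and the genes below whose call was lost when 1 array was left out are named as such.

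In the lists for fatty acid breakdown and handling more genes rose than fell in wild-type livers, and none passed in null livers. Ehhadh, the bifunctional enzyme of peroxisomal beta-oxidation, had log2 signals of 16.27, 16.04, 15.88 and 15.37 in null livers with pirinixic acid and 15.72, 15.83, 16.27 and 16.75 with methylcellulose. The groups overlapped, with the lowest of the 8 values on a pirinixic acid array and the highest on a methylcellulose array. The difference was -0.25 ± 0.52 in null livers (SE from the shared variance, n = 4 each, 95% interval -1.31 to 0.81). In wild-type livers it was 4.81 ± 0.56, a 28.0-fold rise (limma adjusted p = 2.54e-06). The genotype difference was -5.06 (limma adjusted p = 0.000597). The null interval thus ended at a 1.75-fold rise.

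Cd36, a fatty acid translocase of the plasma membrane, read 12.79, 13.18, 12.54 and 12.80 in null livers with pirinixic acid, against 13.24, 12.55, 13.26 and 12.70 with methylcellulose. Its null difference was -0.11 ± 0.39 (95% interval -0.90 to 0.68), while in wild-type livers it rose by 4.43 ± 0.42 (limma adjusted p = 3.93e-08). Fabp4, a fatty acid binding protein best known from adipocytes and macrophages, read 12.56, 12.99, 12.90 and 12.78 with pirinixic acid and 13.01, 12.73, 12.82 and 12.62 with methylcellulose in null livers. These 8 values lay close together, and the difference was 0.01 ± 0.29 (95% interval -0.59 to 0.61), against 4.39 ± 0.32 in wild-type livers (limma adjusted p = 8.63e-11). The genotype difference was -4.54 for Cd36 and -4.38 for Fabp4 (limma adjusted p = 2.94e-05 and 5.39e-07).

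Slc27a1, a fatty acid transport protein, differed by -0.29 ± 0.38 in null livers and rose by 3.19 ± 0.41 in wild-type livers (limma adjusted p = 8.33e-06). Acot1, a cytosolic thioesterase that frees fatty acids from coenzyme A, read 14.30, 14.30, 15.17 and 14.42 with pirinixic acid and 15.08, 14.51, 14.31 and 15 with methylcellulose in null livers. Its difference was -0.18 ± 0.51 in null livers, against 4.29 ± 0.55 in wild-type livers (limma adjusted p = 8.33e-06). Acot1 has close relatives in the genome, and how well the probe separates them is unknown here. Both genes also differed between genotypes, at -3.49 for Slc27a1 and -4.47 for Acot1 (limma adjusted p = 0.00119 and 0.00175).

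The Cyp4a enzymes hydroxylate the terminal carbon of fatty acids and are among the classical PPARα targets. Cyp4a31 read 7.56, 8.89, 7.95 and 8.22 with pirinixic acid and 6.36, 7.43, 7.41 and 10.43 with methylcellulose in null livers. Both null groups averaged below the silent-gene level, and the highest signal was a methylcellulose array. As measured, the difference was 0.25 ± 0.82 in null livers, against 6.71 ± 0.88 in wild-type livers (limma adjusted p = 1.23e-05). The genotype difference of -6.46 passed (limma adjusted p = 0.00504), but its size rests on null signals not above background.

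Cyp4a14 was the widest spread of these genes. It read 8.97, 6.53, 8.70 and 10.72 in null livers with pirinixic acid, against 8.21, 7.15, 13.97 and 14.54 with methylcellulose. Replicates 3 and 4 of the vehicle group were high, and no pirinixic acid array came near them. The difference was -2.24 ± 1.65 (95% interval -5.61 to 1.13), and it was -1.24 without vehicle replicate 3, -1.05 without vehicle replicate 4, -3.51 without vehicle replicate 2, -1.51 without pirinixic acid replicate 2, 1.64 within the smaller array set and -4.28 within the larger. The wild-type rise of 6.29 ± 1.78 (limma adjusted p = 0.0304) lost its call when any of 5 of the 7 wild-type arrays was left out (adjusted p up to 0.167), and the genotype difference of -8.53 did not pass (limma adjusted p = 0.0694).

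**Figure D2:**
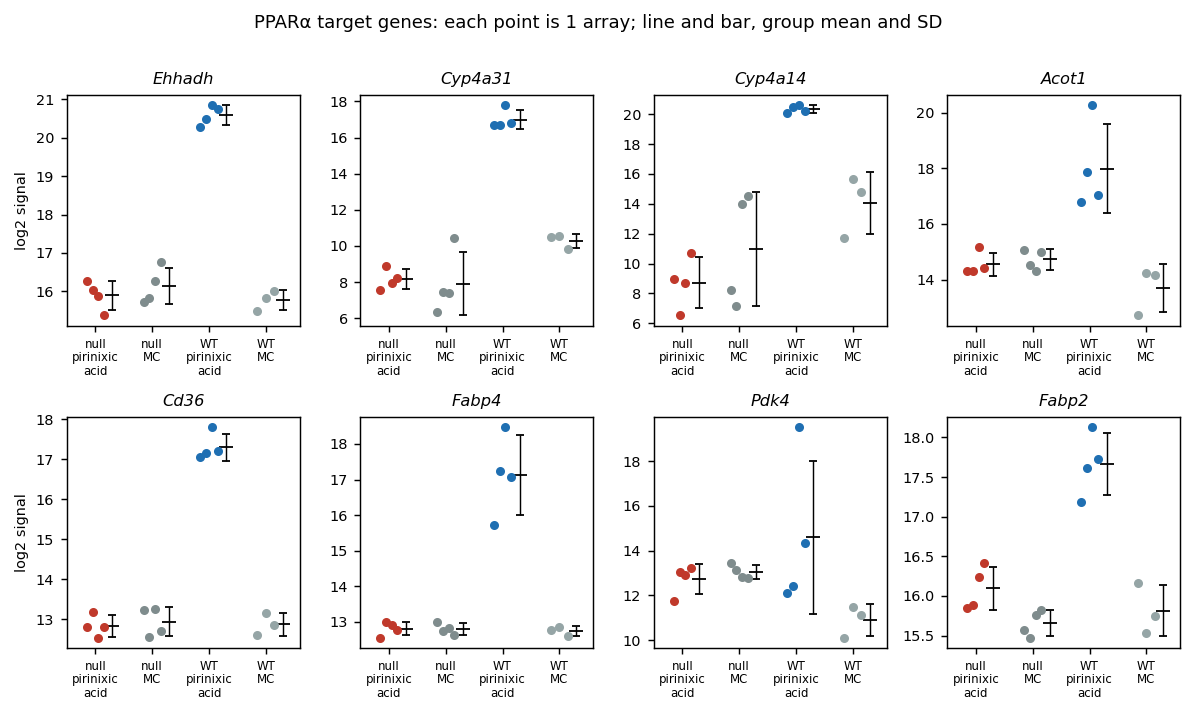
Log2 signal of 8 PPARα target genes on each array of the null pirinixic acid, null methylcellulose (MC), wild-type (WT) pirinixic acid and WT methylcellulose groups, left to right. Points are arrays, and the line and bar beside them are the group mean and SD; the 2 null groups overlap for every gene shown except Fabp2, while the WT pirinixic acid arrays stand above the WT methylcellulose arrays.

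Across the whole list of omega-oxidation and fatty acid handling genes, 41 of 52 were measured. In null livers 0 rose and 0 fell, and the median log2 difference was 0.034, against 0.024 over all probes tested. In wild-type livers 20 rose and 3 fell, against 2.8% and 3.3% of all probes, and the median was 1.37. Of the 41 genes, 24 had a null interval within 1 log2 unit of 0.

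Fabp2, the intestinal-type fatty acid binding protein, was the list member whose null arrays did not overlap. It read 15.85, 15.89, 16.23 and 16.41 with pirinixic acid and 15.57, 15.47, 15.76 and 15.82 with methylcellulose. The gap between the groups was narrow, and non-overlap with pirinixic acid higher occurred at 1.32% of all probes. The difference was 0.44 ± 0.22 (95% interval -0.01 to 0.89), against 1.85 ± 0.24 in wild-type livers (limma adjusted p = 8.08e-06). The genotype difference was -1.41 (limma adjusted p = 0.0223), and it lost the call without any of 4 of the 15 arrays (adjusted p up to 0.0782).

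Genes that link fatty acid oxidation to fasting were also measured. Pdk4, the kinase that switches off pyruvate dehydrogenase, read 11.76, 13.03, 12.91 and 13.24 with pirinixic acid and 13.47, 13.15, 12.82 and 12.79 with methylcellulose in null livers. Its difference was -0.32 ± 0.91, against 3.69 ± 0.98 in wild-type livers (limma adjusted p = 0.0204). The wild-type call rested in part on replicate 3 of the pirinixic acid group, at 19.51 against 12.13, 12.44 and 14.33 on the others, and without that array the difference was 2.05. The call was also lost without methylcellulose replicates 1 or 3 of the wild type (adjusted p up to 0.0997). The genotype difference of Pdk4 did not pass (limma adjusted p = 0.124).

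Fgf21, the fasting hormone of the liver, differed by 0.47 ± 0.77 in null livers and by 1.47 ± 0.83 in wild-type livers, and passed in neither. Plin2, a coat protein of lipid droplets, differed by 0.15 ± 0.40 in null livers and rose by 1.62 ± 0.43 in wild-type livers (limma adjusted p = 0.0216, lost without any of 4 of the 7 arrays, when it reached 0.117). Cpt1a, the carnitine palmitoyltransferase of liver mitochondria, had a weak signal and differed by 0.18 ± 0.67 in null livers and 0.31 ± 0.72 in wild-type livers. Neither Fgf21 nor Cpt1a passed in either genotype.

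Peroxisomal beta-oxidation and biogenesis genes kept close to 0 in null livers. Of 31 measured genes of 39 listed, 0 rose and 0 fell, the differences ran from -0.27 to 0.61 with a median of 0.047, and 25 had an interval within 1 log2 unit of 0. In wild-type livers 10 of the 31 rose, against 2.8% of all probes, and the median was 0.578. Acaa1b, a peroxisomal thiolase, read 18.53, 18.56, 18.82 and 19.19 with pirinixic acid and 18.25, 18.87, 18.96 and 18.42 with methylcellulose in null livers. The difference was 0.15 ± 0.27, against 1.24 ± 0.29 in wild-type livers (limma adjusted p = 0.00758), and the genotype difference of -1.09 did not pass (limma adjusted p = 0.158).

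The remaining peroxisomal genes named here had similar null values. Ech1, a dienoyl-CoA isomerase, differed by 0.05 ± 0.31 in null livers and rose by 1.71 ± 0.33 in wild-type livers (limma adjusted p = 0.00191), and Crat, carnitine acetyltransferase, differed by -0.27 ± 0.46 and rose by 2.36 ± 0.50 (limma adjusted p = 0.00383). The largest null difference of the list was that of Nudt7, a peroxisomal coenzyme A diphosphatase, with 17.70, 17.84, 17.72 and 17.58 in pirinixic acid arrays and 17.20, 16.59, 17.80 and 16.80 in methylcellulose arrays. The groups overlapped through vehicle replicate 3, and the difference of 0.61 ± 0.32 did not pass.

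Mitochondrial beta-oxidation and ketogenesis genes gave the same count. Of 15 measured genes of 22 listed, 0 rose and 0 fell in null livers, with a median of 0.022. In wild-type livers 6 rose, against 2.8% of all probes, with a median of 0.942. Acadl, the long-chain acyl-CoA dehydrogenase, read 15.79, 15.59, 16.19 and 15.97 with pirinixic acid and 15.78, 15.82, 15.43 and 16.21 with methylcellulose in null livers, a difference of 0.08 ± 0.26, and rose by 1.61 ± 0.28 in wild-type livers (limma adjusted p = 0.000532). Decr1, a dienoyl-CoA reductase, differed by 0.03 ± 0.21 in null livers and rose by 1.51 ± 0.23 in wild-type livers (limma adjusted p = 8.72e-05). Hadhb, the thiolase subunit of the trifunctional protein, differed by -0.01 ± 0.22 and rose by 1.24 ± 0.24 (limma adjusted p = 0.00172), and its second probe differed by -0.04 in null livers.

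The 95% interval of the null difference was -0.40 to 0.47 for Decr1, -0.46 to 0.44 for Hadhb and -0.45 to 0.60 for Acadl. The genotype difference passed for Decr1 (-1.48, limma adjusted p = 0.0139). It also passed for Acadl (-1.53, limma adjusted p = 0.0371), Hadhb (-1.25, 0.0472) and Crat (-2.63, 0.0449), but these calls were lost without any of 8, 14 and 11 of the 15 arrays, with adjusted p up to 0.112, 0.113 and 0.118.

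Some of the largest wild-type rises were in genes outside fatty acid oxidation, and none of them passed in null livers. Lamb3, a beta chain of epithelial laminin, read 11.51, 12.27, 12.18 and 12.33 with pirinixic acid and 11.71, 11.60, 11.95 and 11.48 with methylcellulose in null livers. Its difference was 0.39 ± 0.32 in null livers, against 4.83 ± 0.34 in wild-type livers (limma adjusted p = 8.63e-11), and the genotype difference was -4.44 (limma adjusted p = 1.2e-06). Amn, amnionless, a membrane partner of cubilin, differed by 0.53 ± 0.60 in null livers and rose by 5.77 ± 0.64 in wild-type livers (limma adjusted p = 1.15e-06). Hes7, a transcriptional repressor of the embryonic segmentation clock, differed by 0.21 ± 0.66 and rose by 5.04 ± 0.71 (limma adjusted p = 3.37e-05).

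Mogat1, an acyltransferase that makes diacylglycerol, differed by 0.16 ± 0.78 in null livers and rose by 5.36 ± 0.84 in wild-type livers (limma adjusted p = 0.000139). Ston1, stonin 1, an endocytic adaptor, differed by -0.45 ± 1.14 and rose by 6.69 ± 1.23 (limma adjusted p = 0.001), with a second probe at -1.05 in null livers. Between genotypes the difference passed for Amn (-5.24, limma adjusted p = 0.00175), Hes7 (-4.82, 0.00792), Mogat1 (-5.21, 0.0178) and Ston1 (-7.14, 0.0278). It was lost for Mogat1 without wild-type methylcellulose replicate 1 (adjusted p = 0.0531) and for Ston1 without any of 8 of the 15 arrays (up to 0.0929). Wild-type methylcellulose arrays averaged below the silent-gene level for Amn and Ston1, on 3 of 3 arrays for Amn and 2 of 3 for Ston1, and with those arrays raised to it the wild-type differences were 4.18 and 6.06.

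Genes that fell in wild-type livers did not pass in null livers. Hsd3b5, a steroid dehydrogenase of male liver, read 17.03, 17.12, 18.02 and 16.85 with pirinixic acid and 15.93, 16.66, 17.91 and 17 with methylcellulose in null livers. Its difference was 0.38 ± 0.69 in null livers, against -4.49 ± 0.75 in wild-type livers (limma adjusted p = 0.000315). Its near relative Hsd3b4 differed by 0.48 ± 0.69 in null livers and fell by 4.07 in wild-type livers (limma adjusted p = 0.00095), and the 2 probes may read shared sequence. The genotype difference was 4.87 for Hsd3b5 and 4.54 for Hsd3b4 (limma adjusted p = 0.0121 and 0.0196). It was lost for Hsd3b5 without wild-type methylcellulose replicate 1 (0.0505) and for Hsd3b4 without that array or wild-type pirinixic acid replicate 3 (up to 0.0716).

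Slco1a1, a male-biased organic anion transporter, read 17.65, 17.49, 17.79 and 17.89 with pirinixic acid and 17.08, 17.27, 17.26 and 17.75 with methylcellulose in null livers. The difference was 0.37 ± 0.33, against -2.79 ± 0.35 in wild-type livers (limma adjusted p = 7.68e-06). C8b, a chain of complement component 8, differed by 0.16 ± 0.24 in null livers and fell by 2.39 in wild-type livers (limma adjusted p = 5.79e-07). The genotype difference was 3.16 for Slco1a1 and 2.55 for C8b (limma adjusted p = 0.000659 and 0.000164).

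The other genes of this kind had wider spreads in null livers. Obp2a, an odorant-binding lipocalin, read 14.55, 14.81, 15 and 12.98 with pirinixic acid and 14.55, 11.52, 14.42 and 12.18 with methylcellulose, so both groups held low arrays. Its difference was 1.16 ± 0.90 in null livers, against -5.33 ± 0.97 in wild-type livers (limma adjusted p = 0.000855). Cd200r3, a receptor of the CD200 family on myeloid cells, differed by 1.18 ± 0.57 in null livers and fell by 2.80 in wild-type livers (limma adjusted p = 0.005), where its pirinixic acid group averaged below the silent-gene level. Noct, nocturnin, a clock-regulated phosphatase, differed by -0.15 ± 0.75 in null livers and fell by 2.94 in wild-type livers (limma adjusted p = 0.0262). Between genotypes the difference passed for Obp2a (6.49, limma adjusted p = 0.00904) and Cd200r3 (3.98, 0.0129) and did not pass for Noct (2.78, 0.208).

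Complement and coagulation genes and male-biased genes fell in wild-type livers and had no call in null livers. In null livers 0 of 40 measured complement and coagulation genes and 0 of 15 male-biased liver genes fell, with medians of 0.028 and 0.161. In wild-type livers 23 of the 40 and 10 of the 15 fell, against 3.3% of all probes, with medians of -0.696 and -1.37. For 39 of the 40 complement and coagulation genes the null interval lay within 1 log2 unit of 0.

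**Figure D3:**
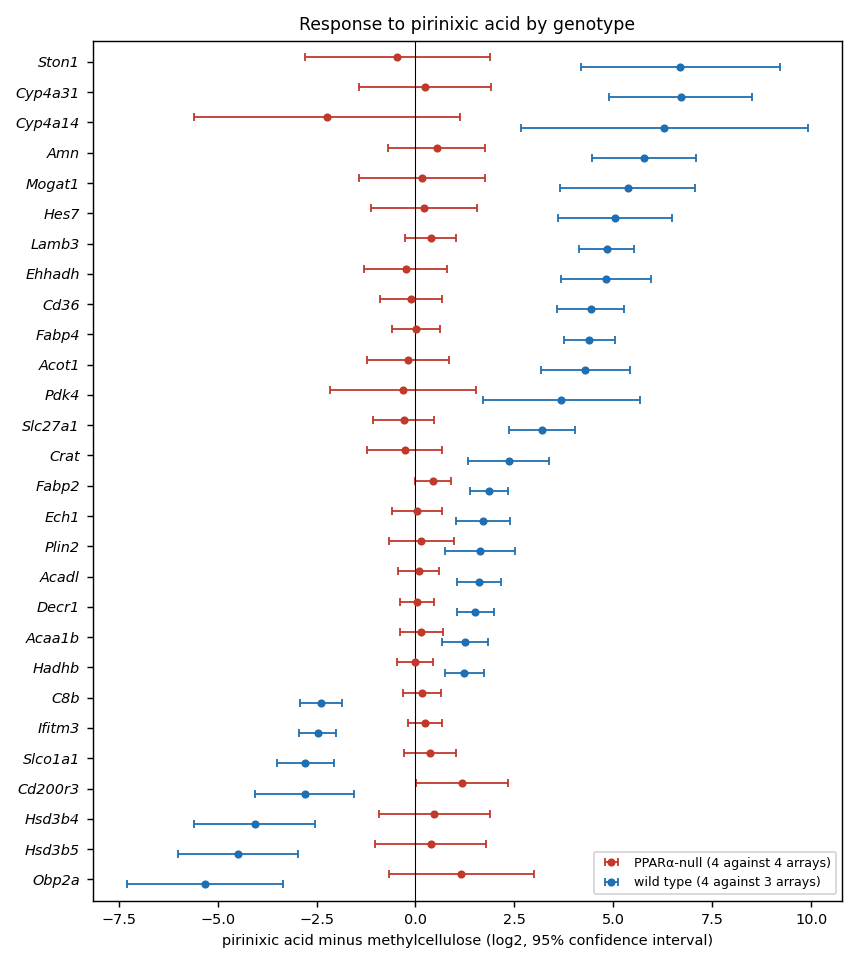
Log2 difference between pirinixic acid and methylcellulose with its 95% confidence interval in PPARα-null livers (upper mark of each gene, 4 against 4 arrays) and in wild-type livers (lower mark, 4 against 3 arrays) for genes named in the text. The null intervals include 0 for all genes shown except Cd200r3, whose interval starts at 0.02, and the wild-type intervals do not include 0.

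Fabp1, the liver fatty acid binding protein, has a well-known PPARα response element near its start, and its promoter is shown for that element. It is from RefSeq (GRCm38.p6), chr6:71199629-71199878, plus strand, the 250 bases before the start of the gene, with the match to the direct repeat of AGGNCA with 1 base between its copies, here on the opposite strand, in capitals.
Fabp1: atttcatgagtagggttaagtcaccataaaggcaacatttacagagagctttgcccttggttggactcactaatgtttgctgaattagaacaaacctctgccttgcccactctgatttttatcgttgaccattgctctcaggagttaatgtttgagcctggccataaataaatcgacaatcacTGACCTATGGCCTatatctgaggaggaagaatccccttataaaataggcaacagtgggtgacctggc
Fabp1 was near the top of the signal range, at 21.03, 21.20, 21.40 and 21.15 with pirinixic acid and 20.59, 20.71, 21.20 and 21.32 with methylcellulose in null livers. The difference was 0.24 ± 0.19 in null livers and -0.35 ± 0.21 in wild-type livers, and neither passed. The direct repeat, searched on both strands from 250 bases before to 50 after each start, was found in 125 of 32851 promoters (0.381%), in 2 of the 351 promoters matched to genes higher in wild type (0.57%) and in 5 of the 386 matched to genes lower in wild type (1.3%). It was in 43 of 9403 promoters matched to tested genes (0.457%). In the peroxisomal and mitochondrial lists above it was in 0 of 25 and 0 of 11 matched promoters. In the omega-oxidation and fatty acid handling list it was in 1 of 36, that of Fabp1, so Fabp1 does not stand for these lists.

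Receptors related to PPARα were measured, and none passed. Pparg read 12.35, 12.07, 12.50 and 12.67 with pirinixic acid and 12.58, 12.24, 11.84 and 12.22 with methylcellulose in null livers, a difference of 0.18 ± 0.29. Nr1i3, the gene of CAR, differed by -0.08 ± 0.18, Nr1i2, the gene of PXR, by -0.19 ± 0.29, and Nr1h3, the gene of the oxysterol receptor LXRα, by 0.19 ± 0.12. Of 20 measured nuclear receptors of lipids and xenobiotics, 0 rose and 0 fell in null livers, with a median of -0.065. Among 13 measured genes listed as PPARγ or PPARδ targets, 0 rose and 0 fell in null livers with a median of 0.0095. In wild-type livers 6 of them rose, against 2.8% of all probes, with a median of 1.27.

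Genes of xenobiotic metabolism under CAR and PXR are the usual sign of a compound acting on those receptors. In null livers with pirinixic acid, 0 of 33 measured genes rose and 0 fell, with a median of 0.032. Cyp2b10, the CAR target of mouse liver, read 14.18, 11.86, 13 and 12.55 with pirinixic acid and 12.31, 13.08, 12.82 and 13.90 with methylcellulose. Pirinixic acid replicate 1 was the highest of the 8 arrays, the groups overlapped, and the difference was -0.13 ± 0.58 (95% interval -1.32 to 1.05). Cyp3a16, a PXR-responsive family member, differed by -0.42 ± 0.21, and its signal was near the top of the range in both groups. It is also on the female-biased list, and how well its probe separates the Cyp3a relatives is unknown here. Cyp3a11 had no probe of its own among those tested.

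The largest difference of that list was that of Gadd45b, a stress gene that CAR and PPARα activators raise in mouse liver. It read 9.73, 10.08, 10.53 and 10.54 with pirinixic acid and 12.77, 12.53, 10.51 and 10.80 with methylcellulose in null livers. Vehicle replicates 1 and 2 were high, and vehicle replicate 3 fell among the pirinixic acid arrays. The difference was -1.43 ± 0.66, against 1.65 ± 0.72 in wild-type livers (limma adjusted p = 0.175), and the genotype difference of -3.08 did not pass (limma adjusted p = 0.105). Cyp7a1, the rate-limiting enzyme of bile acid synthesis, differed by -0.32 ± 0.82 at its brighter probe and -0.20 at the other.

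Oxidative stress genes gave a narrow result. Of 29 measured NRF2 and glutathione genes, 0 rose and 0 fell in null livers, the differences ran from -0.29 to 0.43 with a median of 0.038, and 25 intervals lay within 1 log2 unit of 0. In wild-type livers 5 rose and 2 fell, against 2.8% and 3.3% of all probes. Aldh1a1, a retinaldehyde dehydrogenase, was named from the CAR and PXR list. It read 20.35, 20.23, 20.13 and 20.35 with pirinixic acid and 20.13, 19.99, 19.75 and 20.04 with methylcellulose in null livers, and differed by 0.28 ± 0.15.

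PFOA, a perfluorinated surfactant, was given to null mice in the same study, with the same numbers of arrays. Pirinixic acid against methylcellulose gave 0 called probes in null livers, and PFOA at 3 mg/kg against water gave 76 (0.3%), 66 higher (0.261%) and 10 lower (0.0395%). The PFOA count was 43 without water replicate 1, 45 without water replicate 3, 15 when the arrays of the comparison were fitted alone and 10 on probes complete on them. The 66 probes that PFOA raised had a median difference of 0.082 with pirinixic acid, against 1.60 with PFOA, and 0 were called with pirinixic acid. The upper end of the pirinixic acid interval lay below the PFOA estimate for all 66, and its lower end lay above it for all 10 that PFOA lowered. These counts leave out the error of the PFOA estimates, by which the probes were chosen, and the direct test is given below. The doses and vehicles of the 2 compounds differ, so the values are set side by side and do not compare potency.

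The response to PFOA minus that to pirinixic acid was tested in null livers, and 12 probes passed (0.0474%), all with a higher PFOA response. That count was 7 without null methylcellulose replicate 3 and 5 when the arrays of the comparison were fitted alone. Cyp2c55, a CAR-responsive cytochrome, read 11.22, 10.57, 11.72 and 11.53 with pirinixic acid and 10.32, 10.54, 11.71 and 10.22 with methylcellulose. It read 17.75, 17.83, 17.63 and 17.61 with PFOA and 11.08, 10.54, 11 and 11.04 with water. The pirinixic acid arrays overlapped those of both vehicles, although 3 of the 4 lay above every water array, and all lay far under the PFOA arrays. The difference was 0.56 ± 0.45 for pirinixic acid and 6.79 ± 0.45 for PFOA, and the PFOA response exceeded that to pirinixic acid by 6.22 (limma adjusted p = 1.02e-06).

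Cyp2b10 rose by 4.60 ± 0.58 with PFOA (limma adjusted p = 1.96e-05), and that response exceeded the one to pirinixic acid by 4.73 (limma adjusted p = 0.00822). S100a8, a calcium-binding protein of neutrophils, read 11.15, 7.54, 10.39 and 11.13 with pirinixic acid and 8.46, 7.99, 10.54 and 6.95 with methylcellulose. It read 15.44, 15.37, 16.54 and 14.85 with PFOA and 8.73, 8.16, 8.22 and 7.34 with water. The pirinixic acid difference of 1.57 ± 0.70 was 1.06 without vehicle replicate 4 and 2.41 without pirinixic acid replicate 2, and 2.68 within the smaller and 0.476 within the larger array set. The PFOA response of 7.44 ± 0.70 exceeded it by 5.87 as measured (limma adjusted p = 0.00745). Both vehicle groups averaged below the silent-gene level, so the size is not exact, and with the water arrays raised to that level PFOA was higher by at least 6.78.

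Of the 8 measured neutrophil markers, S100a8 was the one that passed with PFOA, and their median difference with pirinixic acid was -0.053. Col1a1, the alpha 1 chain of type I collagen, differed by -0.07 ± 0.38 with pirinixic acid and rose by 3.10 ± 0.38 with PFOA, an excess of 3.17 (limma adjusted p = 0.00789). Prss8, the membrane protease prostasin, differed by -0.35 ± 0.35 with pirinixic acid and rose by 2.15 ± 0.35 with PFOA, an excess of 2.49 (limma adjusted p = 0.0467) that lost its call without any of 12 of the 16 arrays (adjusted p up to 0.185).

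The carboxylesterases Ces2a and Ces1g and the cartilage factor Cnmd (chondromodulin) also passed and were chosen after their values were seen. Ces2a differed by -0.27 ± 0.19 with pirinixic acid and rose by 1.67 ± 0.19 with PFOA, an excess of 1.93 (limma adjusted p = 0.000448). Ces1g differed by 0.27 ± 0.22 with pirinixic acid and rose by 2.28 ± 0.22 with PFOA, an excess of 2.01 (limma adjusted p = 0.00389). Cnmd differed by -0.06 ± 0.32 with pirinixic acid and rose by 2.43 ± 0.32 with PFOA, an excess of 2.49 (limma adjusted p = 0.0132), which was lost without null methylcellulose replicate 3 (0.0596).

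Some PPARα targets passed with PFOA in null livers and did not pass there with pirinixic acid. Cyp4a31 differed by 0.25 ± 0.82 with pirinixic acid and rose by 4.22 ± 0.82 with PFOA (3.21 with the water arrays raised to the silent-gene level, as 3 of 4 lay below it; limma adjusted p = 0.00944, 0.0519 without water replicate 3). Acaa1b differed by 0.15 ± 0.27 with pirinixic acid and rose by 1.60 ± 0.27 with PFOA (limma adjusted p = 0.00137). Acadl differed by 0.08 ± 0.26 with pirinixic acid and rose by 1.32 ± 0.26 with PFOA (limma adjusted p = 0.00944, 0.0511 without PFOA replicate 4). For these 3 genes the difference between the compounds did not pass (limma adjusted p = 0.503, 0.36 and 0.503), so they are not shown to differ.

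**Figure D4:**
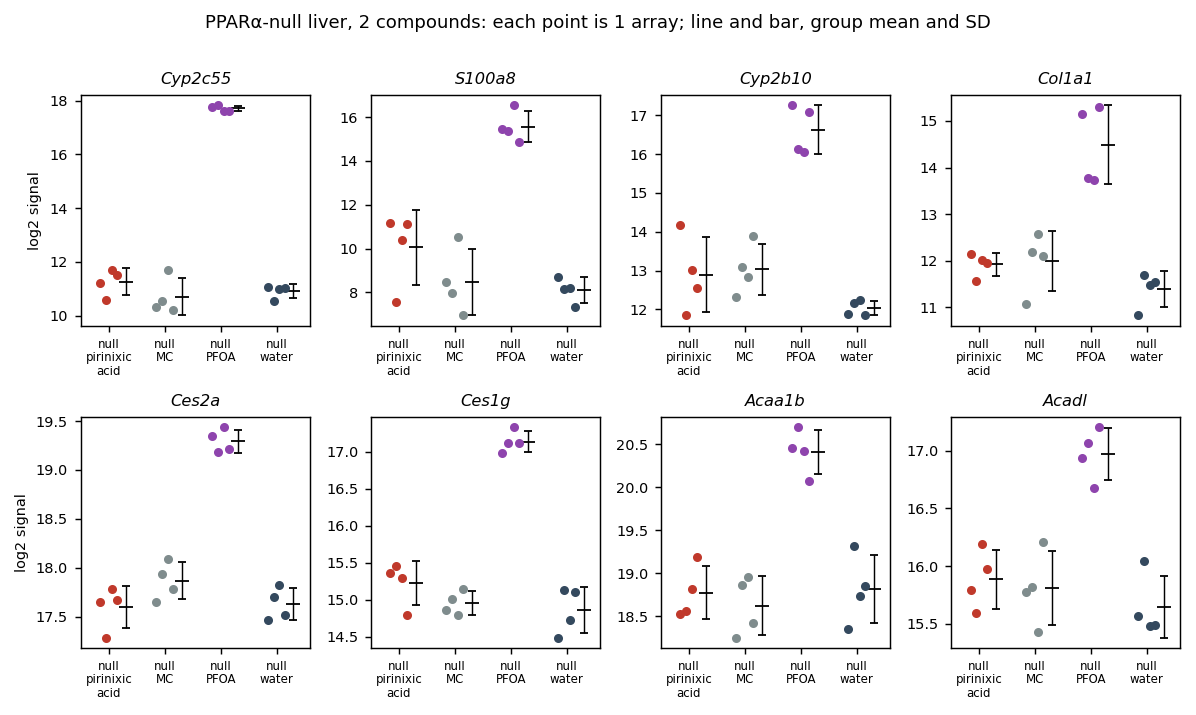
Log2 signal of 8 genes on each array of the null pirinixic acid, null methylcellulose (MC), null PFOA (3 mg/kg) and null water groups, left to right, with the group mean and SD as a line and bar. The PFOA arrays lie above the water arrays for all 8 genes, and the pirinixic acid and methylcellulose arrays overlap for all 8.

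The genes with the smallest unadjusted p among those whose null arrays did not overlap are given as values, since none passed. With pirinixic acid higher, the first was Zfp334, a zinc finger gene, with 9.85, 9.58, 9.32 and 10.03 with pirinixic acid and 8.64, 7.97, 8.42 and 8.14 with methylcellulose (difference 1.40 ± 0.38). Olfr624, an olfactory receptor gene and so of a class taken above as silent in liver, differed by 1.22 ± 0.34. Xk, a membrane transport protein, differed by 1.05 ± 0.34, and Podn, podocan, a matrix proteoglycan, by 0.83 ± 0.29. With arrays raised to the silent-gene level the differences of Zfp334 and Xk, whose methylcellulose groups averaged below it, were 0.76 and 0.62. Podn also rose in null livers with PFOA, by 1.57 ± 0.29 (limma adjusted p = 0.00688).

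With pirinixic acid lower, Egr1, an immediate early transcription factor, had the largest difference among the named genes whose null arrays did not overlap. It read 9.14, 8.22, 9.33 and 9.67 with pirinixic acid and 10.68, 10.46, 10.78 and 11.31 with methylcellulose (difference -1.72 ± 0.71). Smarcd1, a chromatin remodelling subunit, differed by -1.33 ± 0.45, Fbxl7, an F-box protein, by -0.83 ± 0.39, and Dnase2b, a lysosomal nuclease, by -0.36 ± 0.14. The other named genes of this direction, Helz, Zfp59, Morn4, Svs4 and Clns1a, differed by -0.37, -0.59, -1.16, -0.73 and -0.20. The pirinixic acid groups of Smarcd1, Morn4 and Svs4 averaged below the silent-gene level, and with arrays raised to it the differences were -0.49, -0.70 and -0.20. Dnase2b fell in wild-type livers as well, by 0.99 (limma adjusted p = 0.000139).

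Lyve1, a hyaluronan receptor of sinusoidal endothelium, read 10.11, 10.06, 10.77 and 10.90 with pirinixic acid and 11.36, 11.56, 11.73 and 11.49 with methylcellulose in null livers. Every pirinixic acid array was below every methylcellulose array. The difference was -1.08 ± 0.38, against 1.27 ± 0.41 in wild-type livers (limma adjusted p = 0.0561), and the genotype difference of -2.35 passed (limma adjusted p = 0.0284) but was lost without any of 4 of the 15 arrays (up to 0.118). Over the 14 endothelial markers measured, 0 passed and the median was -0.069 in null livers.

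Interferon-inducible genes leaned one way, although 0 of the 30 measured passed in null livers (0% of all probes passed). In 28 of the 30 the mean was higher with pirinixic acid, the median log2 difference was 0.507, against 0.024 over all probes, and the arrays did not overlap, with pirinixic acid higher, for 10 genes, against 1.32% of all probes. At an unadjusted limma p under 0.05 there were 7 genes, against 2.73% of all probes. These genes encode antiviral and guanylate-binding effectors that type I and type II interferons induce. The list was chosen with earlier results of these data known.

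Ifit1, an interferon-induced RNA-binding protein, read 11.04, 11.29, 11.49 and 10.38 with pirinixic acid and 10.26, 9.58, 9.57 and 10.18 with methylcellulose in null livers. Every pirinixic acid array was above every methylcellulose array, the nearest pair 10.38 and 10.26. The difference was 1.15 ± 0.32, a 2.22-fold value (95% interval 1.41 to 3.49). In wild-type livers Ifit1 differed by -0.62 ± 0.35, and the genotype difference of 1.77 did not pass (limma adjusted p = 0.0532).

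Gbp3, a guanylate-binding protein, read 13.21, 12.22, 11.90 and 12.23 with pirinixic acid and 11.26, 11.77, 11.48 and 10.99 with methylcellulose (difference 1.02 ± 0.31). Its relative Gbp8 differed by 1.27 ± 0.42, and the immunity-related GTPases Igtp and Irgm1 by 0.84 ± 0.27 and 0.46 ± 0.17. In Gbp3, Gbp8 and Igtp the highest of the 8 arrays was pirinixic acid replicate 1. Ube2l6, the conjugating enzyme for ISG15, differed by 0.49 ± 0.15 in null livers and rose by 0.73 ± 0.16 in wild-type livers (limma adjusted p = 0.00657). Oas1g, an oligoadenylate synthetase, differed by 1.20 ± 0.42 with overlapping arrays.

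Ifi35 and Irf7 differed between the genotypes. Ifi35 read 12.91, 13.25, 13.11 and 12.88 with pirinixic acid and 12.80, 12.52, 12.56 and 12.66 with methylcellulose in null livers, a difference of 0.41 ± 0.12, against -0.33 ± 0.13 in wild-type livers. The genotype difference of 0.74 passed (limma adjusted p = 0.0305), and was lost without any of 7 of the 15 arrays (up to 0.0834). Irf7, the master regulator of type I interferon, differed by 0.60 ± 0.33 in null livers and fell by 1.29 in wild-type livers (limma adjusted p = 0.0266). Its genotype difference of 1.90 (limma adjusted p = 0.0436) was lost without any of 13 of the 15 arrays (up to 0.146).

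Ifitm3, a membrane protein that blocks viral entry, was the firmest of these genotype differences. It read 19.32, 19.04, 19.28 and 19.28 with pirinixic acid and 19.22, 18.92, 18.70 and 19.08 with methylcellulose in null livers, a difference of 0.25 ± 0.21 (95% interval -0.18 to 0.68). In wild-type livers it read 16.48, 16.39, 15.85 and 15.83 with pirinixic acid and 18.91, 18.36 and 18.57 with methylcellulose, a fall of 2.47 (limma adjusted p = 2.89e-08). The genotype difference was 2.72 (limma adjusted p = 4.66e-06). Its neighbour in the family Ifitm1 differed by 0.10 ± 0.19 in null livers and fell by 1.68 in wild-type livers, with a genotype difference of 1.78 (limma adjusted p = 0.00104) and its second probe differed by -0.25 in null livers.

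The promoters of Ifit1, Gbp3 and Irgm1 are shown because these members had non-overlapping null arrays and hold the core of the interferon-stimulated response element, GAAA and GAAACT with 2 bases between them, on either strand, printed in capitals. They are from RefSeq (GRCm38.p6), each the 250 bases before the start of the gene, at chr19:34640639-34640888 on the plus strand for Ifit1, chr3:142559794-142560043 on the plus strand for Gbp3 and chr11:48871421-48871670 on the minus strand for Irgm1. In Ifit1 and Gbp3 the match is on the opposite strand, and the 2 matches of Gbp3 overlap.
Ifit1: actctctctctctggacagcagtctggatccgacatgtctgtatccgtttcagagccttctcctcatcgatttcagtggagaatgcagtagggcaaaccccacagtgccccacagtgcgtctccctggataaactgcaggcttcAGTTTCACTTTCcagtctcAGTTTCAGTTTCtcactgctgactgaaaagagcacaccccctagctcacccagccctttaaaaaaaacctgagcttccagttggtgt
Gbp3: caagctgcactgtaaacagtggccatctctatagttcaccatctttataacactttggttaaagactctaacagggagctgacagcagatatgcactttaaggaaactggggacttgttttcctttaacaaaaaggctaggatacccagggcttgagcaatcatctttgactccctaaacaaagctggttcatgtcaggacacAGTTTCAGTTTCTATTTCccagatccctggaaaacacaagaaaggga
Irgm1: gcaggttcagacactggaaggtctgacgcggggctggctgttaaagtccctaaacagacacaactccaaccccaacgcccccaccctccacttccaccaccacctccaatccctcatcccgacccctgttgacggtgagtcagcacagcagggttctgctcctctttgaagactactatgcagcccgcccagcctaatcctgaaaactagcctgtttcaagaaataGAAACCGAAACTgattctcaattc
The core was in the promoters of 8 of the 23 measured interferon-inducible genes that had a promoter in the table, among them Oas1g and Ifitm3, against 31 of 9403 tested genes (0.33%) and 89 of all 32851 promoters (0.271%). A match is a description of the sequence, and the members were listed because interferon is known to induce them.

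The mean signal of the 30 interferon-inducible genes was 12.70 to 12.98 on the 4 null arrays with pirinixic acid and 12.21 to 12.44 on the 4 with methylcellulose, without overlap. The other null groups were at 12.28 to 12.65 with PFOA at 3 mg/kg, 12.54 to 12.72 with PFOA at 1 mg/kg and 12.65 to 12.77 with water. The ranges with methylcellulose and with PFOA at 3 mg/kg overlapped at the low end, and of the pirinixic acid arrays 1 lay within the range of water and 3 above it. In wild-type livers the means were 11.44 to 12 with pirinixic acid and 11.89 to 12.71 with methylcellulose. The null median of the list was 0.419 to 0.601 when 1 array was left out, 0.322 within the smaller array set and 0.439 within the larger.

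Kupffer cell markers leaned the same way as the interferon-inducible genes. All 13 of 13 measured markers of these liver macrophages were higher with pirinixic acid in null livers, 0 passed, and the median was 0.349. Their mean signal was 13.19 to 14.05 with pirinixic acid and 12.92 to 13.45 with methylcellulose, so the groups overlapped. The median was 0.195 without pirinixic acid replicate 1, 0.234 without vehicle replicate 4, 0.399 within the smaller array set and 0.137 within the larger. Their part in the interferon result was not tested. In whole liver, more cells of a type and more RNA per cell cannot be told apart.

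Among single markers, C1qb, a chain of complement C1q made by macrophages, read 14.72, 13.82, 14.32 and 14.10 with pirinixic acid and 14.09, 13.87, 13.68 and 13.23 with methylcellulose (difference 0.52 ± 0.22). Vsig4, a complement receptor of Kupffer cells, differed by 0.40 ± 0.18, C1qc by 0.38 ± 0.19, Timd4 by 0.42 ± 0.22 and Clec4f by 0.09 ± 0.19. In C1qc and Timd4, as in C1qb and Vsig4, pirinixic acid replicate 1 was the highest of the 8 arrays. In wild-type livers 5 of the 13 markers fell, against 3.3% of all probes, and the median was -0.599. The genotypes differed for Vsig4 (1.19, limma adjusted p = 0.0185, 0.0566 without wild-type methylcellulose replicate 2) and C1qb (1.31, limma adjusted p = 0.0395, lost without any of 11 of the 15 arrays, up to 0.0952).

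**Figure D5:**
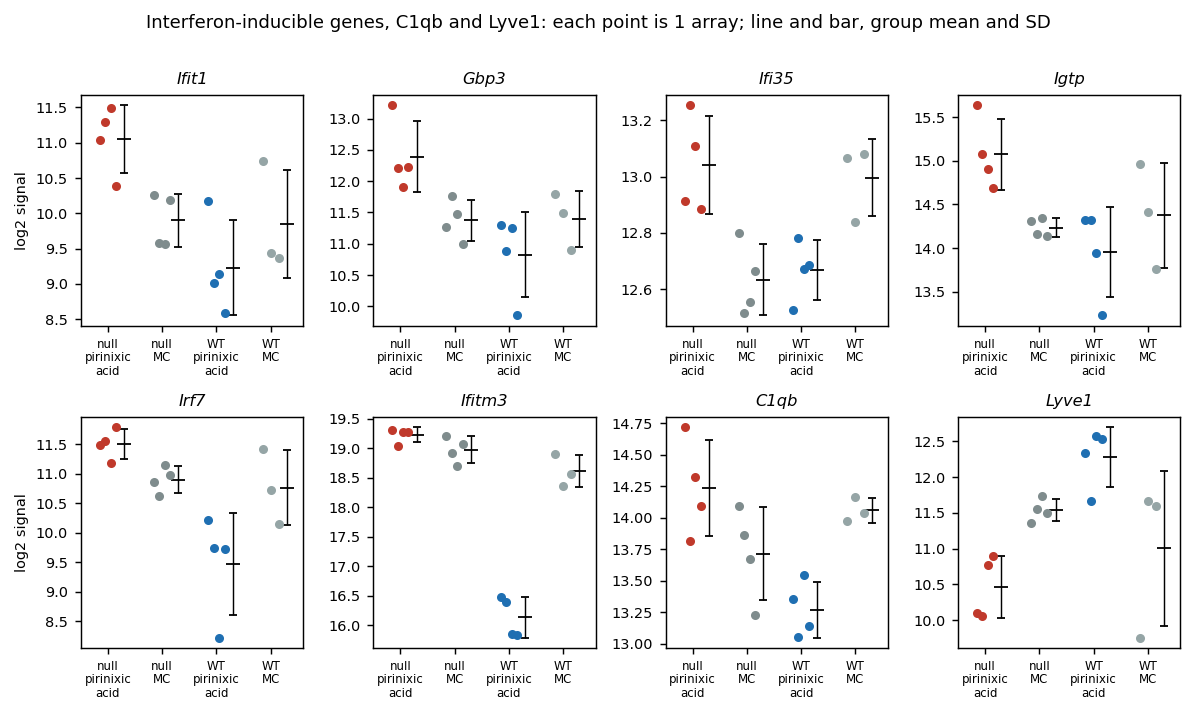
Log2 signal of 6 interferon-inducible genes, C1qb and Lyve1 on each array of the null pirinixic acid, null methylcellulose (MC), wild-type (WT) pirinixic acid and WT methylcellulose groups, left to right, with the group mean and SD as a line and bar. In null livers the pirinixic acid arrays lie above the methylcellulose arrays for Ifit1, Gbp3, Ifi35, Igtp and Irf7, overlap them for Ifitm3 and C1qb, and lie below them for Lyve1.

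Genes of cholesterol synthesis and uptake also leaned one way without passing. In null livers 14 of 15 measured genes were higher with pirinixic acid, 0 passed, and the median was 0.481. In wild-type livers 9 rose, against 2.8% of all probes, and the median was 1.18. Cyp51, the lanosterol demethylase, read 14.96, 15.34, 15.06 and 14.78 with pirinixic acid and 14.80, 14.42, 14.07 and 13.62 with methylcellulose in null livers, a difference of 0.81 ± 0.32, against 1.48 ± 0.35 in wild-type livers (limma adjusted p = 0.0089, 0.0614 without wild-type methylcellulose replicate 3).

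One vehicle array carried much of the lean. On null methylcellulose replicate 4, Idi1, the isopentenyl diphosphate isomerase, read 15.36, against 16.81, 16.62 and 16.74 on the other 3 and 16.95, 17.21, 17.13 and 17.37 with pirinixic acid. On the same array Sqle, squalene epoxidase, read 14.05 and Hmgcs1, the cytosolic HMG-CoA synthase, 15.22, the lowest of the 8 values for each. The null median of the list was 0.191 without that array, -0.086 within the smaller array set, which does not hold it, and 0.649 within the larger. The genotype difference passed for 0 of the 15 genes.

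The remaining lists gave no call in null livers. In each of the lists of bile acid, lipoprotein, glucose and glycogen, amino acid and urea cycle, triglyceride synthesis, acute phase, proteasome, chaperone, cell cycle, p53, oxidative phosphorylation, AhR, circadian clock and female-biased genes, 0 genes rose and 0 fell, with medians between -0.078 and 0.167. The most tightly bounded were oxidative phosphorylation and amino acid catabolism with the urea cycle. All 40 of 40 and 31 of 31 measured genes had an interval within 1 log2 unit of 0, against 50.9% of all probes. The circadian clock list was the least bounded among those with at least 15 measured genes, with 1 of 15 such intervals.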

How the data were processed

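Liver RNA of 39 mice was labelled with digoxigenin and hybridised to an Applied Biosystems mouse array, using extracts whose RIN reached 8.5 or more, per the labels' protocols. The authors deposited 33012 probes as normalised signals on a log2 scale; the base was inferred from their range (4.85 to 21.55), and how they were normalised is not stated in the file headers. For 7717 probes a value was missing on at least 1 array, and these were left out. Probes were named from the platform annotation: 14411 had 1 gene, 247 several and 18354 none, and the brightest probe stood for a gene.

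limma 3.58.1 in R 4.3.3 fitted 1 mean per group to all 39 arrays, with Benjamini-Hochberg adjustment over 25295 probes and a threshold of 0.05. Arrays limit the precision by their number. The labels do not tie an array to a named animal, so p-values measure the spread between arrays. One wild-type array of another treatment went against its label and touches only the shared variance. Scripts were tested on simulated data. Genes were named by rank among calls, or among list members. Wild-type calls also needed every pirinixic acid array on the same side of the methylcellulose mean. In the null comparison, which had no calls, genes were ranked by unadjusted p among those whose arrays did not overlap. The members and lists were chosen with earlier results of these data known. Alternatives were other filters, normalisations, moderation, array weights, array sets, a replicate block and leaving out each array. Same-numbered arrays did not deviate together (r of -0.058, 0.155, 0.138 and -0.174), so the numbers do not pair them. Differences against groups below the silent-gene level were recomputed with each array's value raised to its own silent-gene mean, a choice made after seeing the data.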

Additional observations from a re-analysis of the deposited data

Results flagged for a closer look

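Some values stood apart from the other 3 arrays of their group, a gap that chance gives in about 1 in 20 groups. With pirinixic acid in null livers these were Acot1 at 15.17 on replicate 3, and Amn at 7.97, Ifitm3 at 19.04 and Ube2l6 at 12.80 on replicate 2. With methylcellulose in null livers they were Slc27a1 at 10.87 on replicate 1, Fbxl7 at 11.21 and Stard4 at 14.60 on replicate 3, and Idi1 at 15.36 and Nr1h3 at 16.65 on replicate 4.

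The response in null livers less that in wild type passed limma's test for 30 of the named genes. Among those higher in wild type it was -5.06 for Ehhadh, -6.46 for Cyp4a31, -4.47 for Acot1, -4.54 for Cd36, -4.38 for Fabp4, -3.49 for Slc27a1, -1.53 for Acadl, -1.41 for Fabp2, -1.25 for Hadhb, -1.48 for Decr1, -2.63 for Crat, -5.21 for Mogat1, -5.24 for Amn, -4.44 for Lamb3, -4.82 for Hes7 and -7.14 for Ston1, of which the sizes for Cyp4a31, Mogat1, Amn and Ston1 rest on null signals below the silent-gene level. Among those lower in wild type it was 6.49 for Obp2a, 4.87 for Hsd3b5, 4.54 for Hsd3b4, 3.98 for Cd200r3, 3.16 for Slco1a1, 2.55 for C8b and 1.24 for Cyp4f18, a leukotriene hydroxylase whose call was lost without any of 10 of the 15 arrays (adjusted p up to 0.103). Among interferon-inducible genes and cell markers it was 2.72 for Ifitm3, 1.78 for Ifitm1, 0.74 for Ifi35, 1.90 for Irf7, 1.31 for C1qb, 1.19 for Vsig4 and -2.35 for Lyve1.

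In null livers the response to PFOA minus that to pirinixic acid passed limma's test for 8 genes. It was 6.22 for Cyp2c55, 5.87 for S100a8 (both vehicle groups below the silent-gene level), 4.73 for Cyp2b10, 3.17 for Col1a1, 2.49 for Prss8, 1.93 for Ces2a, 2.01 for Ces1g and 2.49 for Cnmd.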

How the results depend on the processing

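No alternative turned the direction of a called value. The count of probes called for pirinixic acid in null livers was 0 when any array was left out. Within the smaller array set it was 1 (2 arrays against 1), an unnamed probe at -3.38 (limma adjusted p = 0.0257), and it was 0 under every other alternative run. The genotype difference passed for 43 probes with the arrays of the comparison alone and 37 with the probes complete on them, 666 above the median signal, 504 with trend and robust moderation, 1055 with array weights, 588 with a replicate block and 2 within the larger array set. It ranged from 144 to 626 with 1 array left out, and could not be fitted within the smaller set, which holds no wild-type pirinixic acid array. The compound difference passed for 5, 5 and 21 probes with the arrays alone, the probes complete on them and array weights, 20 with the silent-gene index, 1 within each array set, and 7 to 14 with 1 array left out. PFOA in null livers gave 15, 10 and 199 calls under the first 3 of these, 22 within the smaller and 4 within the larger set, and 43 to 72 with 1 array left out. Pirinixic acid in wild-type livers gave 70, 39 and 3225, then 249 within the larger set, and 797 to 2399. The null median of the probes lowered in wild type was -0.199 with the arrays alone and complete probes. That median is over the lowered probes among the 39 calls of that fit, not over the 834 of the main fit. The cause of these shifts was not tested.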
